A study of Mus musculus with 12 samples.

Results

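Titin, encoded by Ttn, is the giant protein that spans each side of the heart muscle sarcomere from the Z-disc to the M-band. Its I-band part is an elastic spring of immunoglobulin domains and the PEVK segment, which is rich in proline, glutamate, valine and lysine. Its A-band part repeats immunoglobulin and fibronectin type III domains along the thick filament, and a kinase domain lies near the M-band. The spring exons are spliced under the control of RBM20, so that the stiff N2B form and the longer N2BA forms coexist in the heart. N6-methyladenosine (m6A) is a base modification that the METTL3 and METTL14 methyltransferase places within the sequence context DRACH, of which GGAC is a common form, and it is known to be frequent in long exons and near stop codons. The members described are all m6A peaks listed under Ttn (ENSMUSG00000051747), 383 of the 41694 peaks and 1 of the 7088 genes in the 6 peak lists.

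The peaks came from MeRIP-seq of hearts of male C57BL/6 mice, in which RNA fragments of 100 to 200 nt bound by an m6A antibody were sequenced beside the input RNA of the same heart. Young mice were 6 to 7 weeks old and aged mice were 26 to 27 months old, and each age gave 3 immunoprecipitates, each with its own input (12 libraries). No genotype or treatment distinguished the groups. Each immunoprecipitate with its input is called a heart here, although the study's methods describe tissue from 3 mice mixed into each RNA sample, so the animals behind a heart are not settled. In such bulk tissue, fewer cells of a type and less RNA per cell cannot be told apart, and a peak list gives neither the level of a transcript nor the degree of its methylation. Of 5 heart muscle marker genes, Actc1, Tnnt2, Ryr2 and Pln had a peak in all 6 hearts and Myh6 in 4 of them. The lists held 4114 to 6505 peaks in young hearts and 7284 to 9367 in aged hearts. The read depth is unknown, and its part in these numbers was not tested.

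Ttn lies on the minus strand at chr2:76703980-76982547 of GRCm38. The transcript with the longest coding sequence served as the reference, with 347 exons, 106.8 kb and an open frame of 35213 residues. Its exons were placed in 4 bands. The Z-disc took exons 1 to 28 (6.66 kb), the I-band exons 29 to 234 (38.1 kb), the A-band exons 235 to 341 (59.2 kb) and the M-band exons 342 to 347 (2.83 kb). The border between Z-disc and I-band was set by hand. The A-band began at the first of 92 matches to a fibronectin type III signature in the encoded protein. The signature of the kinase domain was found in exon 341, at the border of the A-band and the M-band. Within the I-band, 79 exons between exons 110 and 205 encoded at least 60% proline, glutamate, valine or lysine and are called PEVK exons. The union of all annotated Ttn exons covered 116.8 kb, and no base under a Ttn peak lay outside it.

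Only part of the titin peaks recurred between hearts, and the sequence at the most recurrent places is shown first, because these stretches carried a peak in all 6 hearts. On the reference transcript, 22 stretches of 61 to 391 bases were under a peak in every heart, 4.38 kb in total. Of these, 12 held at least 1 GGAC and the other 10 held at least 1 DRACH (D is any base but C, R is A or G, H is any base but G). For comparison, 56.4% of tiles of 240 nt along the whole transcript held a GGAC, and DRACH occurred 23.9 times per kb of it. The stretches differ in length from these tiles, and the counts alone do not set them apart from the rest of the transcript. The following windows show, for 1 stretch in each of 8 places, the GGAC that also fits DRACH and lies closest to the middle of the stretch, read 5′ to 3′ in the sense of the transcript from GRCm38, with GGAC in capitals. They lie at chr2:76944682-76944705 (exon 28), chr2:76863382-76863405 (exon 112), chr2:76830615-76830638 (exons 173 to 176), chr2:76766540-76766563 (exon 287), chr2:76740022-76740045 (exon 309), chr2:76729944-76729967 (exon 318), chr2:76724995-76725018 (exon 322) and chr2:76709469-76709492 (exon 341), all on the minus strand and all in coding sequence. Exon numbers are those of the whole stretch, and the window given for exons 173 to 176 lies in exon 176.
Z-disc, exon 28: cttctgcactGGACcaaagagtta
I-band, exon 112: aatgggaggaGGACtttgaagaag
I-band, exons 173 to 176: aagaccagtgGGACctcctaagaa
A-band, exon 287: tcaaagcaggGGACaccattagac
A-band, exon 309: gctgacgaatGGACtacctgtacg
A-band, exon 318: tgtgagaattGGACataacgtaca
A-band, exon 322: gtcctatcatGGACtgaaccaaaa
A-band, kinase exon 341: gctgcgtgaaGGACaagtggtgag
The long I-band exon 46 and exon 231 had stretches under a peak in all 6 hearts that held no GGAC. Their DRACH closest to the middle, at chr2:76909672-76909696 and chr2:76797944-76797968, is shown in capitals.
I-band, exon 46: gggatgctgtTAACCccttctgctg
I-band, exon 231: agcacctggaAGACCagacggtcac
A match shows only that the letters are present, since peaks of this width do not locate the modified base.

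**Figure D1:**
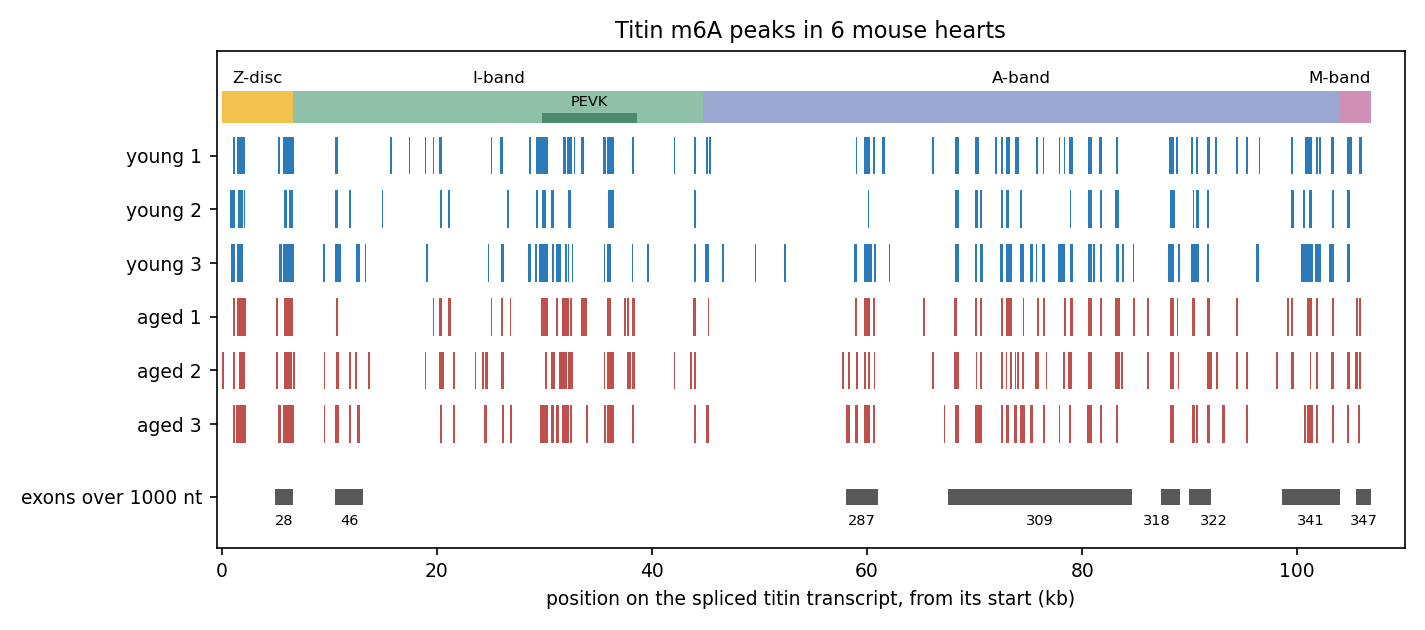
Position of the Ttn peaks of each heart on the spliced reference transcript, in kb from its start, with young hearts in blue and aged hearts in red. The upper bar shows the 4 bands and the span of the PEVK exons, and the lower bars the 8 exons over 1000 nt with their numbers. Blocks of peaks stand above exons 28, 309, 318, 322 and 341 and the PEVK exons in both ages, and the A-band between exons 235 and 287 holds few peaks.

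Titin carried more peaks than any other gene in every heart. The count was 72, 43 and 65 peaks in the 3 young hearts and 62, 79 and 62 in the 3 aged hearts. Young heart 2 had the fewest, aged heart 2 had the most, and the ages overlapped. Young hearts averaged 60 ± 15.1 peaks and aged hearts 67.7 ± 9.81 (SD, n = 3 each), and the gap of 7.67 peaks was smaller than the spread between hearts (two-sided exact permutation test, p = 0.6, smallest possible p 0.1). Without young heart 2 the difference turned to -0.83 peaks. The gene that came next had 13 to 17 peaks in young hearts (Dst or Ahnak) and 24 or 25 in aged hearts (Dst, Zbtb20 or Ahnak). Dst encodes a giant cytoskeletal linker, Ahnak a giant scaffold protein and Zbtb20 a transcription factor.

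Per kb of exon, titin ranked lower. Among the 1633 genes with a peak in all 6 hearts, titin was first by mean peaks per heart (63.8, against a median of 1.83), 278th by peaks per kb of exon (0.546, against a median of 0.313) and 272nd by the share of exon bases under peaks (15.2%, against a median of 7.81%).

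Titin's share of a heart's peaks was 1.11%, 0.802% and 1.58% in young hearts and 0.684%, 0.843% and 0.851% in aged hearts. Young hearts 1 and 3 lay above all aged hearts, while young heart 2 lay among them. The means were 1.16% ± 0.392 (SD, n = 3) and 0.793% ± 0.0943 (SD, n = 3), a change of -0.37 percentage points that did not exceed the spread (two-sided exact permutation test, p = 0.3). The aged lists are longer, and when the 4114 peaks with the lowest p-values were taken from each heart the difference turned to 0.13 percentage points (p = 0.7, same exact test).

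Titin peaks stood high in the lists. Between 93.5% and 98.4% of them had a p-value of 1e-05 or less, against 58.3% to 61.1% of all peaks of the same hearts. The numbers listed with a p-value of 0 were 9, 5 and 10 in young and 7, 4 and 9 in aged hearts, which made up 4.08% to 16.1% of all peaks so listed in a heart. These p-values are unadjusted and depend on read depth as well as on enrichment, so they rank peaks within a heart and do not compare hearts.

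Peaks covered 16.7%, 9.15% and 17.5% of titin exon bases in young hearts and 14.4%, 17.4% and 16.1% in aged hearts. Young heart 2 again stood lowest, and the other 5 hearts lay close together. The means of 14.5% ± 4.63 and 15.9% ± 1.53 (SD, n = 3 each) differed by less than the spread (two-sided exact permutation test, p = 0.9), and without young heart 2 the sign of the difference turned, to -1.20 percentage points. A titin peak was 121 to 1081 bases long with a median of 240. Between 62.5% and 76.7% of a heart's titin peaks lay in 1 exon block, and the most blocks joined by a peak were 10. The longest peak, of 1081 bases, lay in 1 block.

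**Figure D2:**
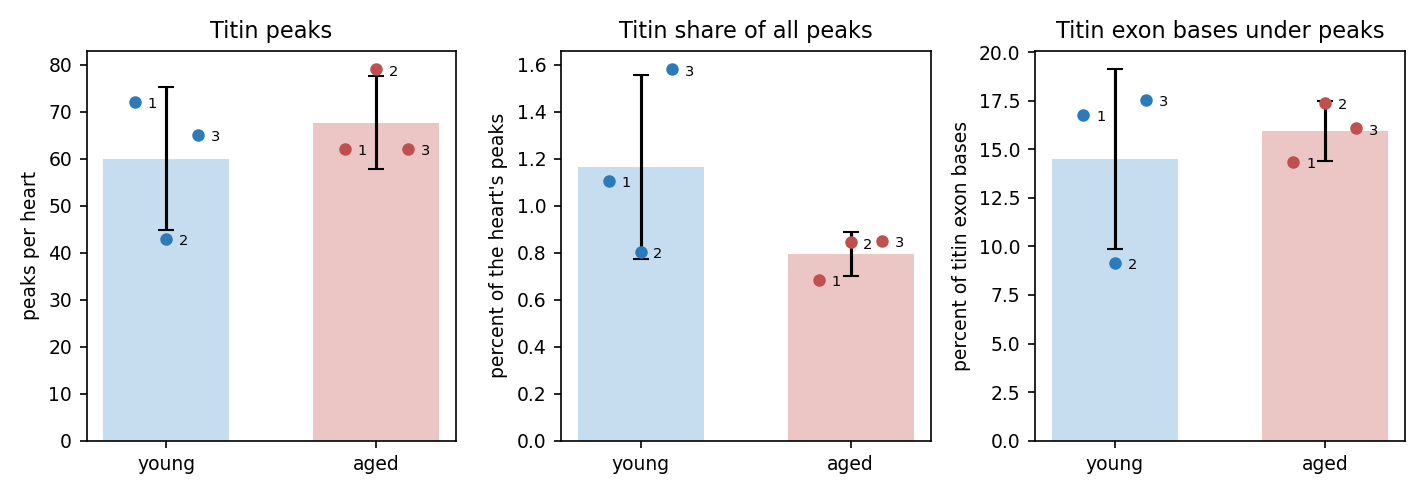
Ttn peaks per heart, their percent of all peaks of the heart, and the percent of Ttn exon bases they cover, with bars at the mean of 3 hearts, error bars of 1 SD and numbered points for the hearts. Young heart 2 is lowest in peaks and in covered bases, and young and aged points overlap in each panel.

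The Z-disc part of the transcript, which anchors titin in the Z-disc through partners such as telethonin, was the most densely covered of the 4 bands in all 6 hearts with exon 28 counted in it, but not without that exon. Peaks lay over 31.5%, 23.8% and 33.1% of Z-disc bases in young hearts and over 30.0%, 27.3% and 34.0% in aged hearts. The I-band values were 14.2%, 7.62% and 14.1% in young and 13.1%, 16.7% and 14.8% in aged hearts. The A-band values were 14.2%, 7.53% and 19.0% in young and 12.3%, 13.0% and 13.8% in aged hearts. Every Z-disc value was above every I-band and A-band value with the border after exon 28, whereas the I-band and A-band ranges overlapped. Exon 28 held 39.9% to 59.2% of the covered Z-disc bases. With the border before it, Z-disc coverage was 17.3%, 19.2% and 19.4% in young and 19.1%, 16.5% and 20.6% in aged hearts. These values overlapped those of the other bands and lay below the M-band in young heart 1 and aged heart 2. In aged heart 2 the Z-disc also lay below the I-band, which reached 18.5% with exon 28 added to it. The short M-band ranged from 10.6% in young hearts 2 and 3 to 27.7% in young heart 1. In none of these 4 bands did the ages separate.

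Of the covered bases on the reference transcript, the A-band held the largest part in every heart, with 50.4%, 48.2% and 58.8% in young and 49.5%, 46.6% and 49.7% in aged hearts. It makes up 55.5% of the transcript. Its mean share was 52.5% ± 5.61 and 48.6% ± 1.74 (SD, n = 3 each), a change of -3.90 percentage points that was within the spread (two-sided exact permutation test, p = 0.4). The share of the I-band was 32.4%, 31.4% and 28.1% in young hearts and 33.9%, 38.4% and 34.2% in aged hearts, against 35.7% of the transcript. Here the ages did not overlap, with a difference of 4.88 percentage points. Its p of 0.1 is the smallest that this exact permutation test can give and becomes 0.4 after Benjamini-Hochberg adjustment over the 4 bands. On the exons of the N2B transcript alone, the I-band share was 6.20%, 8.84% and 11.3% in young and 6.21%, 13.2% and 10.2% in aged hearts, and the ages overlapped (p = 0.7, same exact permutation test). The Z-disc and M-band shares differed between ages by less than the spread, with p of 0.8 and 1 in the same exact permutation test.

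The PEVK exons code for the extensible segment of the spring and are partly left out of the stiff form. Peaks covered 32.6%, 15.9% and 22.6% of PEVK bases in young hearts and 36.1%, 36.0% and 31.8% in aged hearts. Only young heart 1 reached the aged range, and the difference of 10.9 percentage points gave p = 0.2 (two-sided exact permutation test). The annotation holds a full-length transcript of 192 exons and 26886 residues, of the N2B type, that lacks 25.0 kb of the reference. Bases outside this transcript were covered to 19.2%, 9.70% and 15.1% in young and to 18.0%, 19.8% and 18.2% in aged hearts. Bases inside it were covered to 14.6%, 8.34% and 18.8% in young and to 12.5%, 14.2% and 14.6% in aged hearts. Bases outside the N2B transcript were the more densely covered in 5 of 6 hearts, with young heart 3 the other way. The share of each titin form in these hearts was not measured here.

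The I-band also holds the alternative last exon of novex-3, a short titin form of 45 exons and 5508 residues in the annotation that ends within the I-band. This exon spans chr2:76913944-76920463, is 6520 bases long and is not part of the reference transcript. Peaks covered 27.3%, 8.33% and 13.4% of it in young hearts and 17.6%, 38.8% and 21.3% in aged hearts. Aged heart 2 stood highest, young heart 2 lowest, and the ages overlapped. Of 10 regions that lay wholly in this exon, 3 had a peak in all 6 hearts, at chr2:76918209-76918898, chr2:76916979-76917579 and chr2:76915959-76916919. No base of the first of these was under a peak in all 6 hearts, so the peaks joined there were offset from each other.

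**Figure D3:**
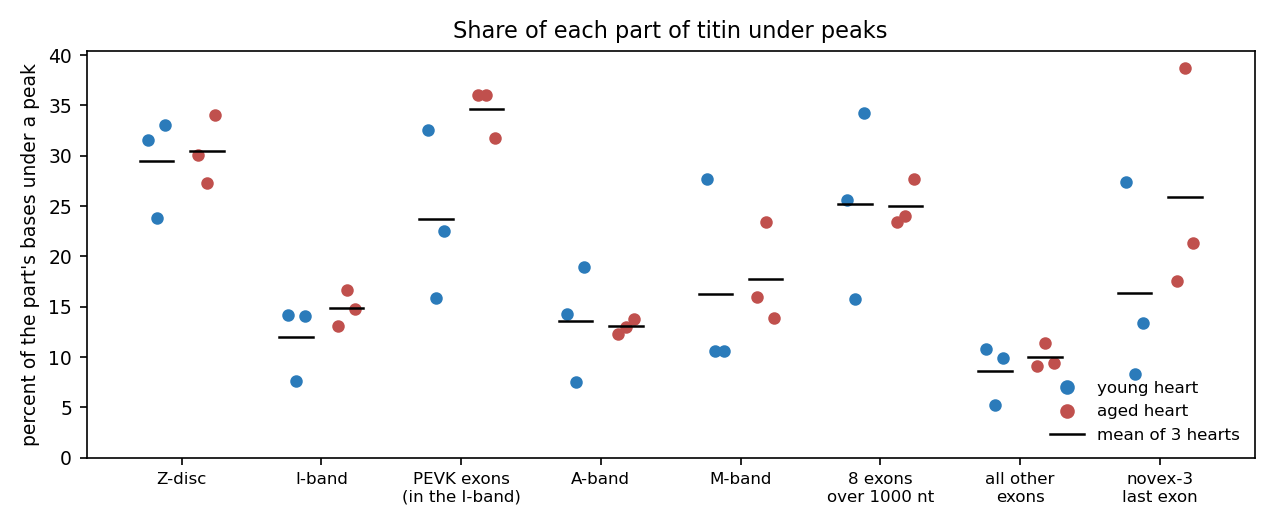
Percent of the bases of each part of Ttn under a peak, 1 point per heart and a line at the mean of 3 hearts. With exon 28 in the Z-disc, as plotted, the Z-disc points lie at 23.8% or more, above all I-band and A-band points, and the exons over 1000 nt lie above the other exons in each heart.

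The reference transcript has 8 exons over 1000 nt, numbers 28, 46, 287, 309, 318, 322, 341 and 347, while its median exon is 267 nt. Together they hold 32.8% of its bases. Peaks covered 25.6%, 15.7% and 34.2% of these 8 exons in young hearts and 23.5%, 24.0% and 27.7% in aged hearts. All other exons were covered to 10.8%, 5.20% and 9.95% in young and 9.07%, 11.4% and 9.45% in aged hearts. Long exons were covered more densely than the rest in all 6 hearts.

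The long exons differed among themselves. Exon 28, the last of the Z-disc (chr2:76944309-76946002, 1694 nt), was covered to 73.3%, 37.3% and 73.3% in young and to 62.1%, 59.2% and 73.3% in aged hearts. It was the most densely covered long exon in every heart. Exon 309 (chr2:76736064-76753169, 17106 nt), the longest exon, codes for a long run of A-band domains and was covered to 19.7%, 13.4% and 29.2% in young and to 19.9%, 22.4% and 22.9% in aged hearts. It held 23.7% ± 3.12 of covered bases in young and 23.3% ± 0.372 in aged hearts (SD, n = 3 each; two-sided exact permutation test, p = 0.9), against 16.0% of the transcript. The sign of this small difference turned when young heart 2 or young heart 3 was left out. In the I-band exon 46 (chr2:76907308-76909953, 2646 nt), which is part of the N2B transcript, coverage ranged from 9.11% in aged heart 1 to 35.2% in young heart 3.

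The other long A-band exons, the kinase exon among them, varied between hearts, and their ages overlapped. Exon 287 was covered to between 5.09% in young heart 2 and 44.6% in aged heart 3. Exon 318 ranged from 23.8% to 39.4%, exon 322 from 18.1% to 43.6% and the kinase exon 341 (chr2:76708776-76714212, 5437 nt) from 15.0% to 37.0%. The last exon, 347, holds the stop codon and was under no peak in young hearts 2 and 3, while 24.5% of it was covered in young heart 1 and 31.2%, 26.7% and 13.4% in aged hearts. The region there, at chr2:76704760-76705730 over exons 346 and 347, had a peak in 1 young and all 3 aged hearts. At the other end, only aged heart 2 had a peak over exons 1 and 2, at chr2:76980135-76982427.

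Joined over the hearts by shared exon bases, the 383 peaks formed 109 titin regions. All 6 hearts had a peak in 24 of the 109, while 1663 of the 15699 regions of all genes (10.6%) had a peak in all 6 hearts. A single heart gave 36 titin regions (33.0%), against 42.9% of all regions. Aged heart 2 and young heart 3 gave 10 of these each, young heart 1 gave 7, aged heart 1 gave 5, and young heart 2 and aged heart 3 gave 2 each. A region was missing from young heart 2 alone in 7 cases. These shares are descriptions without a test.

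No titin region separated the ages. None of the 109 had a peak in all 3 aged hearts and no young heart, a pattern of 2.68% of the regions of all genes, and none had a peak in all 3 young hearts and no aged heart, a pattern of 0.0446% of all regions. Titin regions with a peak in aged hearts only numbered 23 (21.1%, against 41.7% of all regions), and those in young hearts only 21 (19.3%, against 13.9%). The other 65 regions had a peak in both ages. At the level of bases, 150 bases in 5 stretches were under a peak in all 3 aged and no young heart, and 151 bases in 4 stretches the other way, out of 38.6 kb under any titin peak.

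**Figure D4:**
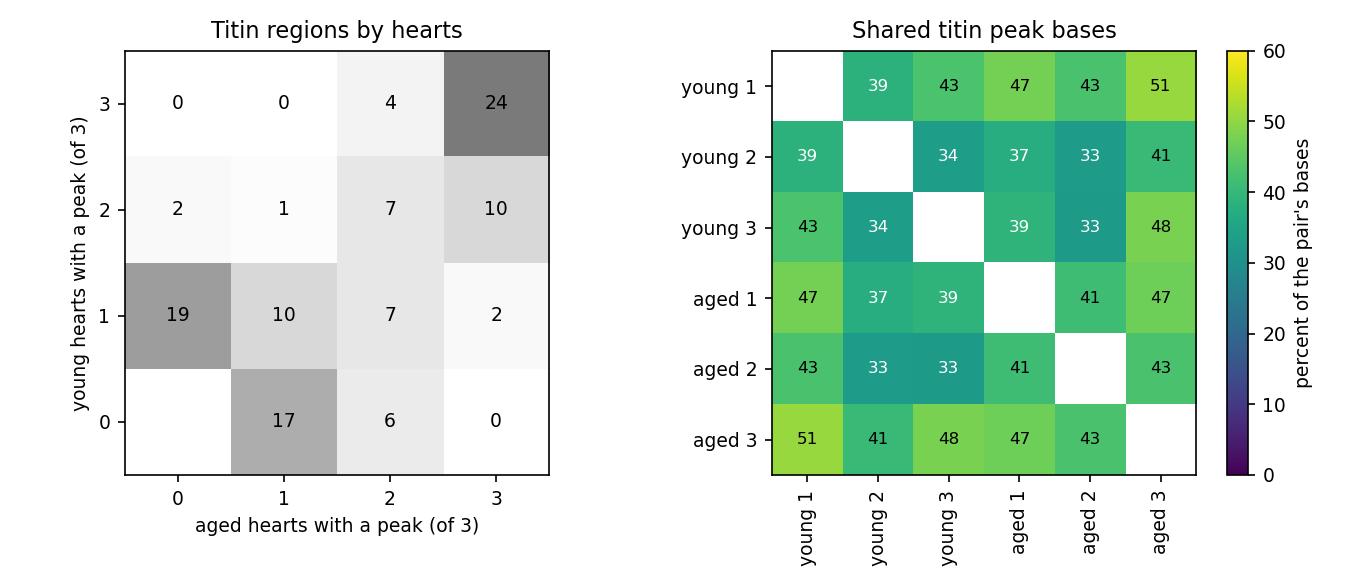
Left, number of Ttn regions by how many young and how many aged hearts had a peak in them. Right, Ttn peak bases shared by each pair of hearts as a percent of the bases covered in either. The upper left and lower right cells, for 3 hearts of 1 age and none of the other, hold 0, and the pairs across ages (32.6% to 50.6%) span the values of pairs within an age.

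Pairs of hearts shared 32.6% to 50.6% of the titin bases covered in either heart. The mean was 38.4% for the 3 pairs of young hearts, 43.6% for the 3 pairs of aged hearts and 41.3% for the 9 pairs across ages. The highest overlap joined young heart 1 and aged heart 3, across ages. Young heart 2 had the shortest map, and 69.9% to 79.7% of its titin bases were also covered in each other heart.

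The 24 regions of all 6 hearts were spread over the molecule. With the kinase exon 341 counted in the A-band, 3 lay in the Z-disc, 5 in the I-band, 12 in the A-band and none in the M-band. The other 4 had their middle outside the reference transcript. In the Z-disc the regions were chr2:76969735-76973169 (exon 7 and a neighbouring exon of other transcripts), chr2:76965762-76969645 (exons 7 to 11) and chr2:76944063-76945279 (exons 28 and 29). In the I-band they were chr2:76909390-76913979 (mainly exon 46, with the end of the novex-3 last exon), chr2:76862390-76870493 (exons 104 to 114), chr2:76848842-76853858 (exons 128 to 138), chr2:76829884-76831795 (exons 171 to 180) and chr2:76797736-76798146 (exons 231 and 232). The last lies beside the start of the A-band.

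Of the 12 A-band regions, 7 lay in exon 309, at chr2:76752104-76752614, chr2:76749915-76750635, chr2:76748055-76748325, chr2:76747216-76747785, chr2:76741517-76741967, chr2:76739747-76740197 and chr2:76737138-76737618. The other 5 were chr2:76766283-76767032 in exon 287, chr2:76729517-76730177 in exon 318, chr2:76724631-76725182 in exons 322 and 323, and chr2:76711325-76712405 and chr2:76709315-76709585 in the kinase exon 341. Beside the 3 regions in the novex-3 exon, the remaining region outside the reference was chr2:76965042-76965672, around exon 12. With the M-band taken as exons 342 to 347, no base of it was under a peak in all 6 hearts. The kinase exon 341 at its border, counted in the A-band, did hold such bases.

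The strongest calls recurred at 4 places. The peaks at chr2:76969735-76973169 in the Z-disc, at chr2:76909390-76913979 over exon 46, and at chr2:76752104-76752614 and chr2:76739747-76740197 in exon 309 were listed with a p-value of 0 in every heart. Recurrence and width went together. Regions of all 6 hearts had a median of 601 bases and 58.3% lay mostly in exons over 1000 nt, whereas regions of 1 heart had a median of 151 bases and 13.9% lay mostly in such exons. A region built from more hearts can only be wider, so the widths are a description.

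The widest regions were not in long exons alone. The longest, chr2:76862390-76870493, joined 1231 bases over 11 exons before and into the PEVK exons. The next, chr2:76848842-76853858, joined 1201 bases over 11 exons, of which 67.3% were PEVK bases. Next, with 1081 bases each, were the regions of exons 28 and 29 and of the kinase exon 341. Each of these had a peak in all 6 hearts.

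Peaks lay away from exon junctions. Among covered bases, 61.8%, 68.0% and 71.0% in young and 63.0%, 59.3% and 64.2% in aged hearts lay at least 100 nt from every exon junction, against 49.3% of all bases of the transcript. At a distance of 50 nt the range over the hearts was 70.9% to 79.9%, against 69.7% of the transcript. At 100 nt, bases under no peak in any heart had 45.0%, and bases under a peak in all 6 hearts had 76.4%. In the latter, 70.3% lay in the 8 long exons, against 25.3% of bases under no peak.

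GGAC was somewhat denser under peaks. It occurred 3.77, 4.43 and 3.82 times per kb of covered bases in young and 3.60, 3.93 and 4.49 times in aged hearts, against 3.19 per kb of bases under no peak of any heart. The ratio was 1.13 to 1.41 over the 6 hearts. Bases under peaks in all 6 hearts had 5.03 GGAC per kb (22 sites), while those of 4 or 5 hearts had 3.13 and 3.12 per kb (10 sites each), so the density did not climb evenly with the number of hearts. Of peaks wholly on the reference transcript, 54.2% to 67.3% held a GGAC, whereas 56.4% of the 445 tiles of 240 nt along the transcript did. Peaks varied in length while tiles did not, and the tiles include bases under peaks, so these percentages compare only roughly. GGAC was searched in the sense of the transcript only.

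**Figure D5:**
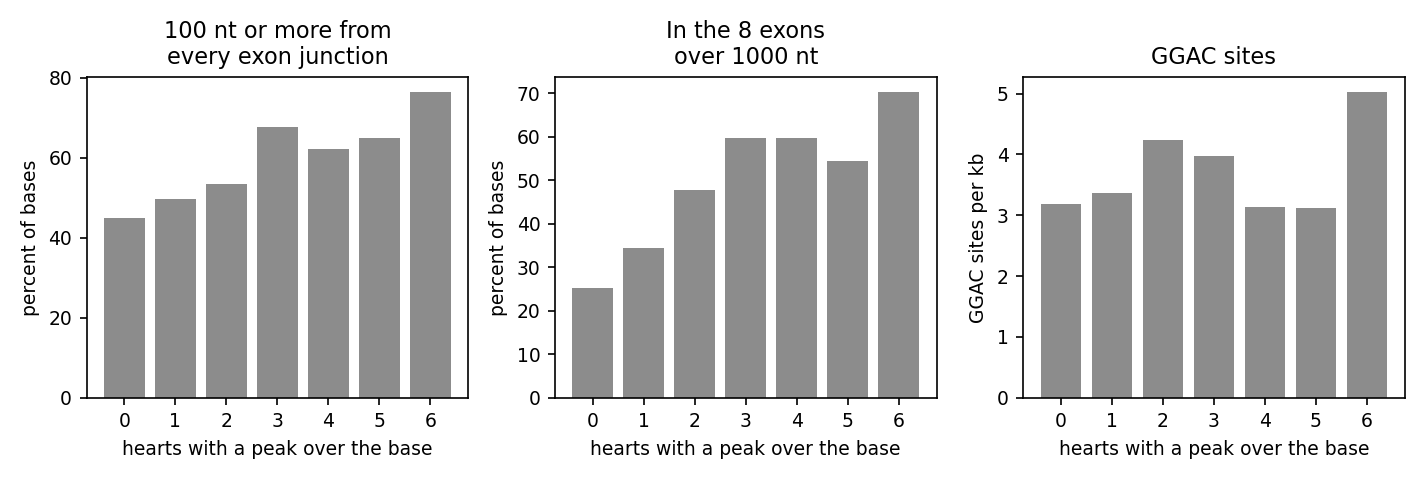
Bases of the reference Ttn transcript grouped by the number of hearts, 0 to 6, with a peak over them: percent at least 100 nt from every exon junction, percent in the 8 exons over 1000 nt, and GGAC sites per kb. The first 2 measures go from 45.0% and 25.3% with no heart to 76.4% and 70.3% with 6 hearts. GGAC is highest at 5.03 per kb with 6 hearts. None of these measures climbs evenly, and the first 2 are lower with 5 hearts (64.8% and 54.5%) than with 3 (67.6% and 59.8%).

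The genes whose peak counts over the 6 hearts were most like those of titin, among 149 others with at least 3 peaks in every heart, were Nebl, D5Ertd579e and Ppp1r3a. Likeness was the root mean square difference of the 6 counts after division by each gene's mean, 0.0911, 0.0938 and 0.104 against a median of 0.243. Nebl, which encodes nebulette, a Z-disc protein that binds actin, had 6, 4 and 5 peaks in young and 5, 6 and 6 in aged hearts. Ppp1r3a encodes a muscle subunit of protein phosphatase 1 that targets it to glycogen.

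Of 40 genes for titin's partners and neighbours in the sarcomere, 31 had a peak in some heart and 21 had one in all 6. Over all genes, 7088 had a peak in some heart and the 1633 ranked above had one in all 6. More peaks in each aged than in each young heart were counted for 2 of the 31 (6.45%), against 6.65% of all genes with a peak, and fewer for none, against 0.141%. Titin was in neither class. The 2 genes were Tnnt2 and Myh7. No peak was listed for Csrp3, Ankrd2, Fhl2, Capn3, Tnnc1, Mybpc3, Myom3, Obsl1 and Trim63.

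At the Z-disc, 9 of 10 genes had a peak. Besides Nebl, the highest counts were those of Ldb3, which encodes a PDZ-LIM protein binding alpha-actinin, with 3, 2 and 5 peaks in young and 4, 6 and 6 in aged hearts, and of Synpo2l, an actin-associated Z-disc protein, with 2, 1 and 3 and 3, 4 and 4 peaks. Tcap, the gene of telethonin that caps the titin N terminus, had 1 peak in aged hearts 2 and 3 and none elsewhere. For the I-band and thin filament, 10 of 14 genes had a peak. Tnnt2, cardiac troponin T, led with 3, 2 and 3 peaks in young and 8, 9 and 4 in aged hearts, followed by Tpm1, alpha-tropomyosin, with 2 or 3 peaks in every heart, and Tmod1, the tropomodulin that caps thin filaments, with 1 to 3. Ankrd1, which binds titin's N2A segment, had 1 to 3 peaks in every heart.

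Of 5 thick filament genes, 4 had a peak. Myh7, the slow beta-myosin heavy chain, had 5, 2 and 6 peaks in young and 11, 7 and 9 in aged hearts. Myh6, the alpha-myosin heavy chain, had 1, 0 and 4 and 1, 0 and 1 peaks. Myh6 and Myh7 are close in sequence, so reads may have been split between them, and the counts of both are uncertain. Myl3, the ventricular essential light chain, had 1 peak in every heart. In the M-band group, which was set by the hand-written list and not by these data, 7 of 10 genes had a peak. Myom1, myomesin, had 1 to 3 peaks per heart, and Trim55, a ubiquitin ligase of the M-band, had 1 or 2. Smyd2, a lysine methyltransferase that the list counts in this group, had 1 to 3. Rbm20, the splicing regulator of titin, had 5, 3 and 3 peaks in young and 6, 6 and 3 in aged hearts, and its ages overlapped.

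Exact copies of 50 bases within the transcript and an antisense gene touched little of the titin map. Inexact copies and copies elsewhere in the genome are not covered by this count. Only 0.893% of reference bases lay in 50-base words that recur in the transcript, all of them in the I-band, and they made up 0.879% of its bases under any peak. The antisense gene Gm13938 overlaps 453 bases of titin exons, and 1 region, seen in young heart 3 alone, touched them.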

How the data were processed

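MeRIP-seq peak lists of 3 young and 3 aged hearts were analysed, 1 list per immunoprecipitate with its input. The authors aligned reads to GRCm38 with HISAT2 and called peaks in each heart with exomePeak at a cutoff of 0.05 on the p-value, without a false discovery rate cutoff. The submitters' processing notes name cutadapt 2.5, HISAT2 2.1.0 and HOMER 4.10.4. The deposited p-value per peak is unadjusted, and the lists hold no values normalized across hearts. Without read counts, depth is unknown and no counting interval is given. Since the labels do not state whether samples came from single or mixed animals, p-values measure only the spread between these samples.

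Peaks were placed on the GENCODE vM21 annotation of GRCm38, counted from 1. Bands followed the exon rule given in the report, and a region took the band of its middle base. Peaks sharing at least 1 exon base on a strand were joined into regions. Ages were compared on 1 value per heart by a two-sided exact permutation test over 20 assignments (smallest p 0.1). Genes named are Ttn, the 3 most alike in peak counts, the sarcomere list (Rbm20 and up to 3 genes per group with the highest mean, with those whose ages did not overlap, and with Tcap and Ankrd1 chosen after their values were seen), the heart muscle markers and the regions of all 6 hearts or of greatest length. Dst, Ahnak, Zbtb20 and Gm13938 fall outside this rule and were named after their values were seen. A result for 1 gene of the sarcomere list is not reported here, and the list's counts leave it out. The members, lists and rules were chosen with earlier results of these data known. Region joining was tested on simulated data, where 200 of 200 planted regions were recovered. Alternatives were a p-value of 1e-05, the best 4114 peaks per heart, a shared length of 50%, each heart left out, the replicate number as a block, other band borders and transcripts, DRACH, and junction distances of 50 and 150 nt. The alternatives with the Z-disc ending before exon 28, with the kinase exon in the M-band, with N2B exons alone and for the I-band share and the regions of all 6 hearts were chosen after seeing the data. Python 3.11.15, numpy 2.4.6 and matplotlib 3.10.9 were used.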

Additional observations from a re-analysis of the deposited data

How the results depend on the processing

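Differences are aged minus young, and no exact permutation test here can pass 0.05. Of 104 recomputed values, 89 kept their direction or stayed near the reported value. These include the values with the replicate block, which could not change. With the best 4114 peaks per heart, titin's share of all peaks turned to 0.13 percentage points. Leaving out each heart gave -0.83 to 13.7 peaks, -0.55 to -0.16 percentage points for titin's share, -1.20 to 2.99 for exon bases under peaks, -6.04 to -0.72 for the A-band share and -2.12 to 0.86 for the longest exon, where the sign turned without young heart 2 (-0.83 peaks, -1.20 for exon bases, 0.17 for the longest exon) or without young heart 3 (0.86 for the longest exon). The I-band share gave 3.41 to 5.75. Regions numbered 101 to 111, those of all hearts 24 to 31, those of aged hearts alone 0 to 3 and of young hearts alone 0 to 2; the latter counts need 1 heart fewer. The A-band difference was -0.82 percentage points with the kinase exon in the M-band or with peaks placed by their middle, and -1.02 on N2B exons alone. With DRACH the motif ratio moved from 1.26 to 1.10, and the excess of covered bases far from junctions moved from 15.2 percentage points to 4.43 at 50 nt and 24.0 at 150 nt; the cause was not tested.

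Replicate numbers name separate samples. Deviations of same-numbered hearts over the 109 regions correlated at 0.08, 0.04 and 0.12. The replicate block cannot change a difference, because each block holds 1 heart of each age (7.67 peaks and 4.88 percentage points for the I-band, for example). Only the p-values are new, with paired exact permutation p of 0.25 to 1, where 0.25 is the smallest possible. Unknown read depth limits any statement on absent peaks.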
